A study of Mus musculus with 6 samples.

Results

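The genes of fibroblast growth factor (FGF) signalling described here comprised 10 of the 34745 genes listed for cultured lung mesenchymal stromal cells (LMSCs): the ligands Fgf1, Fgf2, Fgf7, Fgf10 and Fgf18, the receptors Fgfr1, Fgfr2 and Fgfr3, and the feedback genes Spry2 and Dusp6. They were taken by gene name, and the names had been chosen by their measured values in these libraries, so their own stage differences are given as a description and carry no p-value. The LMSCs came from MMTV-PyMT mice, in which the mouse mammary tumor virus promoter drives the polyoma middle T oncogene in mammary epithelium, so that the stromal cells themselves are not the target of the transgene. Every mouse carried the transgene on the FVB background, and no transgene-free group was among the libraries analysed. Adenoma-stage cells (A-LMSCs) were from mice aged 6 to 7 weeks, pre-metastatic cells (PM-LMSCs) from mice of 9 to 10 weeks and metastatic-stage cells (M-LMSCs) from mice of 13 to 14 weeks, with 2 libraries per stage, so age and stage cannot be told apart. These ages are those of the labels, and the study's methods give slightly older mice for the adenoma and pre-metastatic stages. All were adherent cells expanded to passage 3 after removal of CD45+ cells, and the labels number the libraries 1 and 2 without saying whether those numbers mark separate animals, although the study describes its RNA-seq as made from separate mice of each stage. RNA levels are in fragments per kilobase of transcript per mega-fragment sequenced (FPKM), a unit corrected for gene length and library total, which allows levels of different genes to be compared.

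Most FGFs are secreted proteins that bind receptor tyrosine kinases together with heparan sulfate. The activated receptors signal through the adaptor FRS2 and the RAS, RAF, MEK and ERK kinases. Sprouty proteins such as Spry2 and phosphatases such as Dusp6 are induced by this signalling and restrain it. In the lung, Fgf10 and Fgf7 are mesenchymal ligands for the epithelial form of Fgfr2, Fgf18 takes part in distal airway and alveolar development, and Fgf2 is a mitogen for fibroblasts acting largely through Fgfr1.

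The cultures carried the marker RNAs of stromal cells, and 7 of the 10 FGF genes reached the level needed for testing. All 13 stromal markers, among them Col1a1, Pdgfra and Thy1, reached a mean of 1 FPKM, with a summed level of 2144 to 3380 FPKM per library. Of 14 epithelial markers 0 reached that mean, 10 stayed below 0.5 FPKM in every library and Sftpa1 was listed at 0 throughout, for a sum of 0.468 to 4.36 FPKM that was highest in the M-LMSC libraries. Endothelial markers summed to 1.68 to 2.95 FPKM. The estimated depth was 14.6 to 20.7 mega-fragments per library. Testing required a mean of 1 FPKM or more across all 6 libraries, which 10279 genes met. The 7 FGF genes among them were Fgf2, Fgf7, Fgf10, Fgf18, Fgfr1, Spry2 and Dusp6. Fgf1, Fgfr2 and Fgfr3 did not, and their values are given without a fold on the fitted scale. Fitted differences are on the scale of log2(FPKM + 1), which understates the change of genes with low levels. RNA was measured in bulk, so a gene made by fewer cells cannot be told apart from one with less RNA per cell.

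The promoters of the ligands Fgf18 and Fgf2 and of the feedback gene Spry2 are shown because Fgf18 had the largest distance between stages, Fgf2 the largest distance between libraries of a stage, and Spry2 the highest level. Each sequence is from RefSeq (build GRCm38.p6) and runs 5′ to 3′ on the strand of the gene over 300 bases, 250 before the start and 50 after it. The Fgf18 promoter (chr11:33147351-33147650, minus strand), with CG dinucleotides in capitals, was 78.7% G and C and held 47 CG dinucleotides, against a median of 61.3% and 21 over the 9736 promoters of tested genes:
Fgf18: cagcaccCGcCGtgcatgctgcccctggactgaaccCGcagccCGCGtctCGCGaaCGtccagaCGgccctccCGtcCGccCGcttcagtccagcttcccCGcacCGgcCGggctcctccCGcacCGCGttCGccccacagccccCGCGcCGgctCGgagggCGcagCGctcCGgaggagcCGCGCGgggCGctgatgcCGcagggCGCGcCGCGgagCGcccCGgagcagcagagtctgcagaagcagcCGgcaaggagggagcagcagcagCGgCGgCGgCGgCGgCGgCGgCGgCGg
The Fgf2 promoter (chr3:37348403-37348702, plus strand), marked in the same way, was nearer to that median at 62.7% G and C and 24 CG dinucleotides:
Fgf2: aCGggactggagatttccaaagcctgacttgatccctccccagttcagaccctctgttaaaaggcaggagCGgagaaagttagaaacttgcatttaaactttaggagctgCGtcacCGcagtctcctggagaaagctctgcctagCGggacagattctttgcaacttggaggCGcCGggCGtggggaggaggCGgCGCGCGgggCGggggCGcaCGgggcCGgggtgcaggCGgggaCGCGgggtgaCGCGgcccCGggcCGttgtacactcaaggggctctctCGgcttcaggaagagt
The Spry2 promoter (chr14:105896770-105897069, minus strand) is shown with an ETS core in capitals; ETS factors such as Etv4 and Etv5 are transcription factors downstream of FGF and ERK:
Spry2: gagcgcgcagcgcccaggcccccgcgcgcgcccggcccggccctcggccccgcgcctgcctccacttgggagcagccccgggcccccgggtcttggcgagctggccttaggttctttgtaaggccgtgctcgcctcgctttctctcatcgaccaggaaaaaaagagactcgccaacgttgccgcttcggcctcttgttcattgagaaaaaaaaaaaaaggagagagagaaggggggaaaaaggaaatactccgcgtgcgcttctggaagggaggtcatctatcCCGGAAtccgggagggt
A promoter was at hand for 8 of the 10 genes, Fgf1 and Fgfr1 having no entry. The motifs searched on both strands were the ETS core (CCGGAA), an AP-1 site (TGANTCA), a cAMP response element (TGACGTCA) and a TATA box (TATAAA), and none of them overlapped in these windows. Spry2 held the single match, an ETS core starting at base 284. The ETS core was present in 14.9% of all 32851 promoters of this length and in 28.6% of those of tested genes, beside 1 of the 8 FGF genes. For the AP-1 site the shares were 7.81% and 5.002%, for the cAMP response element 1.79% and 3.06%, and for the TATA box 13.6% and 6.73%. No match says only that these letters are absent from the window.

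Over the 6 libraries, Spry2 was the most abundant of the 10 RNAs at a mean of 38.5 FPKM, followed by Fgfr1 at 20.6 FPKM, Dusp6 at 18.0 FPKM, Fgf18 at 14.1 FPKM, Fgf2 at 9.91 FPKM, Fgf10 at 9.23 FPKM and Fgf7 at 8.52 FPKM. Fgfr2 at 0.974 FPKM, Fgfr3 at 0.0939 FPKM and Fgf1 at 0.0370 FPKM were far below them. The ranges over libraries overlapped between neighbours in this order from Fgfr1 down to Fgf7, and between Fgfr3 and Fgf1. The order of such neighbours is not resolved by the spread between libraries. Genes farther apart in the order could be separate. Fgfr1, at 18.2 FPKM or more, lay wholly above Fgf2, Fgf10 and Fgf7, and Dusp6, at 15.1 FPKM or more, wholly above Fgf10 and Fgf7. Spry2 lay wholly above Fgfr1, Fgf7 wholly above Fgfr2, and Fgfr2 wholly above Fgfr3. Spry2 was above 88.1% of tested genes by mean level, Fgfr1 above 78.6% and Fgf18 above 70.8%.

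**Figure D1:**
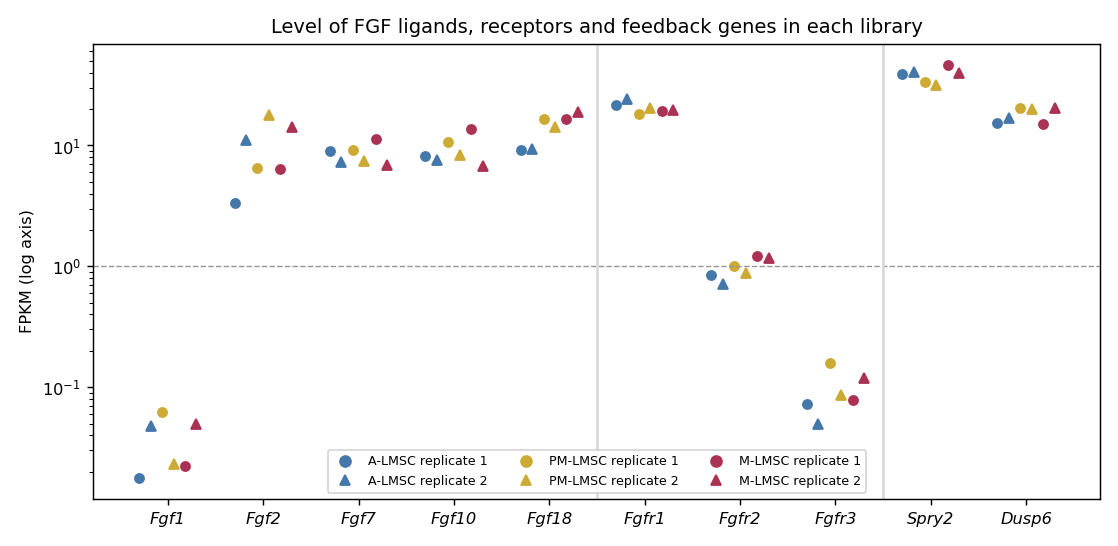
Level of the 10 FGF genes in FPKM (log axis) in each of the 6 libraries, coloured by stage, with circles for replicate 1 and triangles for replicate 2. The dashed line marks 1 FPKM, the mean needed for testing; both A-LMSC points of Fgf18 lie below its 4 later-stage points, and each Fgf2 triangle lies above every Fgf2 circle.

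Among the ligands, Fgf18 was the gene whose stages stood farthest apart. Fgf18 (ENSMUSG00000057967, minus strand of chromosome 11, 33117430 to 33147400, GRCm38) was at 9.17 and 9.34 FPKM at the adenoma stage, 16.6 and 14.2 FPKM at the pre-metastatic stage and 16.4 and 18.8 FPKM at the metastatic stage. Both A-LMSC libraries lay below the 4 others, whereas PM-LMSC and M-LMSC libraries overlapped. The stage means were 9.26 ± 0.116 FPKM, 15.4 ± 1.72 FPKM and 17.6 ± 1.69 FPKM (SD, n = 2 each), so the PM-LMSC mean was 1.67 times and the M-LMSC mean 1.90 times the A-LMSC mean. On the log2 scale the differences from A-LMSCs were 0.68 in PM-LMSCs and 0.86 in M-LMSCs, each with a standard error of 0.13. With each library left out in turn they ran from 0.57 to 0.78 and from 0.76 to 0.95. These values rest on an estimated 191 to 375 fragments per library, and the exons of Fgf18 cover 1187 bases. Of all tested genes, 2.45% had stage means at least as far apart as the 0.86 of Fgf18.

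Fgf2 differed more between the libraries of a stage than between stages. Fgf2 (ENSMUSG00000037225, plus strand of chromosome 3, 37348346 to 37410108) was at 3.34 and 11.2 FPKM at the adenoma stage, 6.50 and 18.0 FPKM at the pre-metastatic stage, and 6.37 and 14.1 FPKM at the metastatic stage. Replicate 2 held more Fgf2 RNA than replicate 1 at every stage, by 3.34-fold, 2.77-fold and 2.22-fold at the adenoma, pre-metastatic and metastatic stage, and all 3 replicate 2 libraries lay above all 3 replicate 1 libraries. On the log2 scale these differences were 1.48, 1.34 and 1.04. Among the 10279 tested genes, 2 were higher in replicate 2 by at least 1.04 at every stage, Fgf2 and the predicted gene Gm29232 (listed at 0 in each replicate 1 library and at 11.4 to 14.8 FPKM in replicate 2). Another 2 were lower by as much at every stage, the predicted gene Gm28661 (1199 to 1342 FPKM in replicate 1 and 27.5 to 43.5 FPKM in replicate 2) and Gpr176, which encodes an orphan receptor and was at 34.0 to 35.6 FPKM in replicate 1 and 7.78 to 10.5 FPKM in replicate 2. These 3 genes were named after their values had been seen.

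The stage means of Fgf2 were 7.25 ± 5.52 FPKM in A-LMSCs, 12.2 ± 8.12 FPKM in PM-LMSCs and 10.2 ± 5.47 FPKM in M-LMSCs (SD, n = 2 each), so the stages overlapped in all 3 comparisons. The log2 differences from A-LMSCs were 0.72 in PM-LMSCs and 0.54 in M-LMSCs, with a standard error of 0.63 that fell to 0.13 once the replicate number entered the fit as a block. Between libraries of the same number, PM-LMSCs held 1.94-fold and 1.61-fold as much Fgf2 RNA as A-LMSCs, and M-LMSCs 1.90-fold and 1.26-fold as much. Without A-LMSC replicate 1 the log2 differences became -0.03 and -0.20, a comparison that sets an A-LMSC library numbered 2 against later libraries of both numbers. Exons of Fgf2 share 640 bases, or 9.44% of their length, with Nudt6 on the opposite strand, which was at 0.320 to 0.605 FPKM, and whether the counting used strand is not given in the sources used here.

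**Figure D2:**
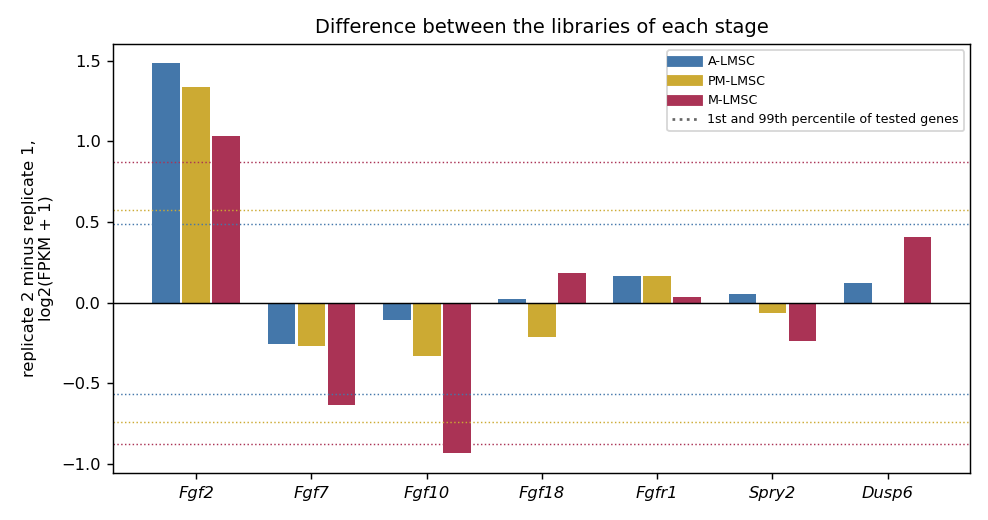
Difference between replicate 2 and replicate 1 in log2(FPKM + 1) at each stage (bars) for the 7 tested FGF genes, with dotted lines at the 1st and 99th percentile of all tested genes of the same stage. The Fgf2 bars of 1.48, 1.34 and 1.04 exceed the 99th percentiles of 0.49, 0.58 and 0.87, while the M-LMSC bar of Fgf10 lies below the 1st percentile of -0.88.

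Fgf7 and Fgf10, the ligands that mesenchyme supplies to epithelium, had stage differences below their standard errors and were both lower in replicate 2. Fgf7 (ENSMUSG00000027208, plus strand of chromosome 2, 126034658 to 126091185) was at 8.93 and 7.31 FPKM at the adenoma stage, 9.24 and 7.498 FPKM at the pre-metastatic stage, and 11.2 and 6.86 FPKM at the metastatic stage. Its stages overlapped in every comparison, with log2 differences from A-LMSCs of 0.04 in PM-LMSCs and 0.11 in M-LMSCs (standard error 0.23). Fgf10 (ENSMUSG00000021732, plus strand of chromosome 13, 118669791 to 118792115) measured 8.20 and 7.54, then 10.8 and 8.35, then 13.8 and 6.73 FPKM in the same order. Both PM-LMSC libraries of Fgf10 lay above both A-LMSC libraries, but the M-LMSC libraries held its highest and its lowest value. Its log2 differences from A-LMSCs were 0.24 and 0.27, with a standard error of 0.29. In replicate 2, Fgf7 was at 0.819, 0.812 and 0.610 of the replicate 1 level in A-, PM- and M-LMSCs, and Fgf10 at 0.920, 0.775 and 0.488. Both genes had their lowest value in M-LMSC replicate 2, the next lowest in A-LMSC replicate 2, and their highest in PM-LMSC replicate 1 and M-LMSC replicate 1. Being lower in replicate 2 at every stage was common, holding for 25.99% of tested genes, and 21.2% were higher at every stage. By size, 3.05% of tested genes were lower by at least the smallest Fgf7 difference (0.26 on the log2 scale) at every stage, and 11.7% by at least the smallest of Fgf10 (0.11).

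Fgf1, a ligand that binds all FGF receptors, was close to absent from the libraries. It was at 0.0176 and 0.0472 FPKM at the adenoma stage, 0.0622 and 0.0231 FPKM at the pre-metastatic stage, and 0.0222 and 0.0498 FPKM at the metastatic stage, which corresponds to an estimated 1.98 to 4.97 fragments per library. Differences between stages were not detectable at this depth. The 17 other Fgf genes of the family, not all of which encode receptor ligands, were also low. Of these, 14 stayed below 0.2 FPKM in every library, 4 (Fgf4, Fgf6, Fgf15 and Fgf17) were listed at 0 in every library, and Fgf21, a metabolic hormone of the family, was the one to exceed 1 FPKM, ranging from 0.0650 to 1.36 FPKM with both extremes in M-LMSCs. Of the summed FPKM of all 22 Fgf genes, Fgf18 made up 25.3% to 38.2% by library and Fgf2 10.7% to 35.9%. Fgf7 made up 13.9% to 28.5% and Fgf10 13.7% to 28.2%. Fgf18 was thus the ligand with the largest share in 4 libraries, and Fgf2 in A-LMSC replicate 2 and PM-LMSC replicate 2.

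Among the receptors, Fgfr1 was predominant at every stage. Fgfr1 (ENSMUSG00000031565, plus strand of chromosome 8, 25513654 to 25575718) was at 21.6 and 24.4 FPKM at the adenoma stage, 18.2 and 20.5 FPKM at the pre-metastatic stage, and 19.2 and 19.7 FPKM at the metastatic stage. Both A-LMSC libraries lay above all 4 later-stage libraries, the opposite side from Fgf18. The log2 differences from A-LMSCs were -0.24 in PM-LMSCs and -0.23 in M-LMSCs, each with a standard error of 0.12, and stage differences at least as large as these occurred in 45.4% of tested genes. Fgfr1 accounted for 93.7% to 96.9% of the summed FPKM of the 4 receptor tyrosine kinases of the family.

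Fgfr2, the receptor for Fgf7 and Fgf10 when spliced in its epithelial form, was low, and its libraries were ordered by stage. Fgfr2 (ENSMUSG00000030849, minus strand of chromosome 7, 130162451 to 133123350) was at 0.841 and 0.720 FPKM at the adenoma stage, 1.01 and 0.887 FPKM at the pre-metastatic stage, and 1.22 and 1.16 FPKM at the metastatic stage. No library of one stage overlapped those of another, and the means of 0.781 ± 0.0862 FPKM, 0.948 ± 0.0865 FPKM and 1.19 ± 0.0440 FPKM (SD, n = 2 each) correspond to 1.21-fold and 1.53-fold the A-LMSC level. The share of genes with such a full order was not computed. Non-overlap in a single comparison held for 34.5% to 51.5% of tested genes, a set that Fgfr2 was not in. Its share of the receptor sum was 2.86% to 5.96%. An estimated 128 to 206 fragments per library lay behind these values. Fgfr2 shares 314 exonic bases with Ctbp2 on the same strand, which was at 2.83 to 3.14 FPKM, so reads over that stretch could have been assigned to either gene, and the gene-level value does not separate the splice forms. Fgfr3, a receptor for Fgf18, was at 0.0730 and 0.0497 FPKM at the adenoma stage, 0.157 and 0.0867 FPKM at the pre-metastatic stage, and 0.0789 and 0.118 FPKM at the metastatic stage, an estimated 6.14 to 16.4 fragments. Its A-LMSC libraries were the lowest 2, at fragment numbers this small. Fgfr4, the remaining receptor, did not exceed 0.0314 FPKM.

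The feedback genes Spry2 and Dusp6 lay on opposite sides of A-LMSCs at the pre-metastatic stage. Spry2 (ENSMUSG00000022114, minus strand of chromosome 14, 105891947 to 105896819) encodes an inhibitor of receptor tyrosine kinase signalling upstream of ERK. It was at 39.1 and 40.6 FPKM at the adenoma stage, 33.2 and 31.8 FPKM at the pre-metastatic stage, and 46.6 and 39.4 FPKM at the metastatic stage. Both PM-LMSC libraries lay below the other 4, with a log2 difference of -0.29 from A-LMSCs and of 0.39 between M-LMSCs and PM-LMSCs (standard error 0.12 for both). Dusp6 (ENSMUSG00000019960, plus strand of chromosome 10, 99263231 to 99267489) encodes a phosphatase that inactivates ERK. It was at 15.4 and 16.9 FPKM at the adenoma stage, 20.3 and 20.2 FPKM at the pre-metastatic stage, and 15.1 and 20.3 FPKM at the metastatic stage. Here both PM-LMSC libraries lay above both A-LMSC libraries, by 0.31 on the log2 scale (standard error 0.15), and the M-LMSC libraries held both the lowest and the highest value of the gene. Of tested genes, 18.3% had stage means as far apart as Spry2 and 30.3% as Dusp6.

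**Figure D3:**
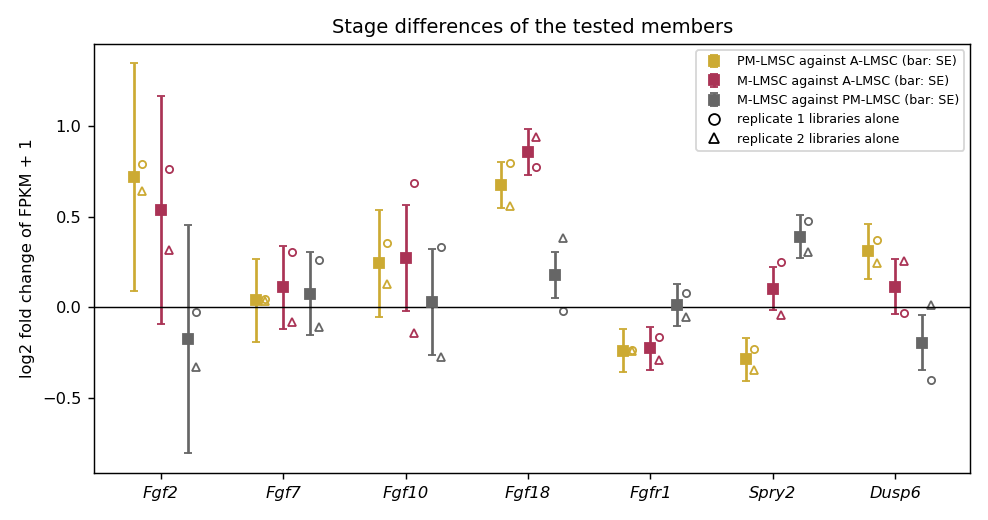
Stage differences of the 7 tested FGF genes as log2 fold change of FPKM + 1 (squares, bars give the standard error), with open circles for replicate 1 libraries alone and open triangles for replicate 2 libraries alone. Fgf18 lies at 0.68 and 0.86 above A-LMSCs with both replicate numbers on the same side, while the wide bars of Fgf2 (0.63) reflect the distance between its libraries.

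The calls among the FGF genes are set beside those among all tested genes. With limma's test and Benjamini-Hochberg adjustment over all tested genes, at a threshold of 0.05, 0 of the 7 tested FGF genes were called between PM-LMSCs and A-LMSCs, where 0.0389% of all tested genes were. The count was also 0 between M-LMSCs and A-LMSCs, against 0.0681% of all tested genes, and 0 between M-LMSCs and PM-LMSCs, against 0.0292%. At an unadjusted p under 0.05, 2, 1 and 1 of the 7 were counted in these comparisons, where 6.53%, 14.6% and 8.94% of all tested genes were. With the replicate number as a block, 1 of the 7, Fgf18, was called between M-LMSCs and A-LMSCs, where 3.92% of all tested genes were, and 0 were called between PM-LMSCs and A-LMSCs (0.292%) or between M-LMSCs and PM-LMSCs (0.418%). As all 7 genes were selected on these values, every count among them in this paragraph is a description and not a test. The call of Fgf18 likewise adds nothing to the description above. Stage libraries that did not overlap were frequent, at 39.3% of tested genes between PM-LMSCs and A-LMSCs, 51.5% between M-LMSCs and A-LMSCs and 34.5% between M-LMSCs and PM-LMSCs. They occurred in 5, 2 and 1 of the 7 tested FGF genes. With 2 libraries against 2, an exact permutation test of a single gene cannot give a p below 0.333.

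The genes closest to Fgf18 across the 6 libraries, by Euclidean distance of centered log2(FPKM + 1), were Tnfaip6, which encodes a secreted hyaluronan-binding protein, at a distance of 0.19, Col4a1, a chain of basement membrane collagen, at 0.23, and Ctla2a, a cysteine protease inhibitor, at 0.25. Tnfaip6 was at 0.898 and 0.869 FPKM at the adenoma stage, 1.98 and 1.40 FPKM at the pre-metastatic stage, and 1.91 and 2.36 FPKM at the metastatic stage. Col4a1 measured 225 and 210.3, then 332 and 338, then 360 and 379 FPKM in the same order. Ctla2a measured 42.7 and 43.9, then 68.8 and 54.1, then 65.6 and 71.6 FPKM. The A-LMSC libraries were the lowest of all 3 genes, as in Fgf18, which follows from choosing them by their distance to Fgf18 over these same libraries.

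Markers of mesothelial and haematopoietic cells varied across the same libraries. The 7 mesothelial markers, such as Msln, Wt1 and Upk3b, all reached 1 FPKM on average, and none was at 0 in every library. They summed to 124 and 182 FPKM at the adenoma stage, 303 and 420 FPKM at the pre-metastatic stage, and 205 and 501 FPKM at the metastatic stage. In 5 of the 7, both A-LMSC libraries lay below the other 4, as for Fgf18, and the share of all tested genes with that order was not computed. In 6 of the 7, replicate 2 was higher at every stage, as for Fgf2 and for 21.2% of all tested genes. Krt19, a keratin also made by epithelia and named after its values were seen, went the other way, at 13.8 and 17.3 FPKM at the adenoma stage and 4.92 and 4.49 FPKM at the metastatic stage. Its log2 difference was -1.53 (limma, adjusted p = 0.0395). The summed mesothelial level in replicate 2 was 1.46, 1.39 and 2.44 times that in replicate 1, largest at the metastatic stage, where the ratio of Fgf2 was smallest (3.34, 2.77 and 2.22). The 8 haematopoietic markers summed to 124 and 117, then 158 and 69.0, then 381 and 270 FPKM in the same order. Ptprc, the gene of CD45, stayed below 0.5 FPKM in every library. Smooth muscle and pericyte markers, with Acta2 in the lead, summed to 5557 to 6916 FPKM, least in M-LMSCs. Rgs5 of the same list stayed below 0.5 FPKM in every library. The 6 tested genes of that list differed between PM-LMSCs and A-LMSCs by -0.39 to 1.05 on the log2 scale, 4 of them above 0. Whether these marker RNAs came from separate cells of those types, and the part of such cells in the FGF values, was not tested.

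**Figure D4:**
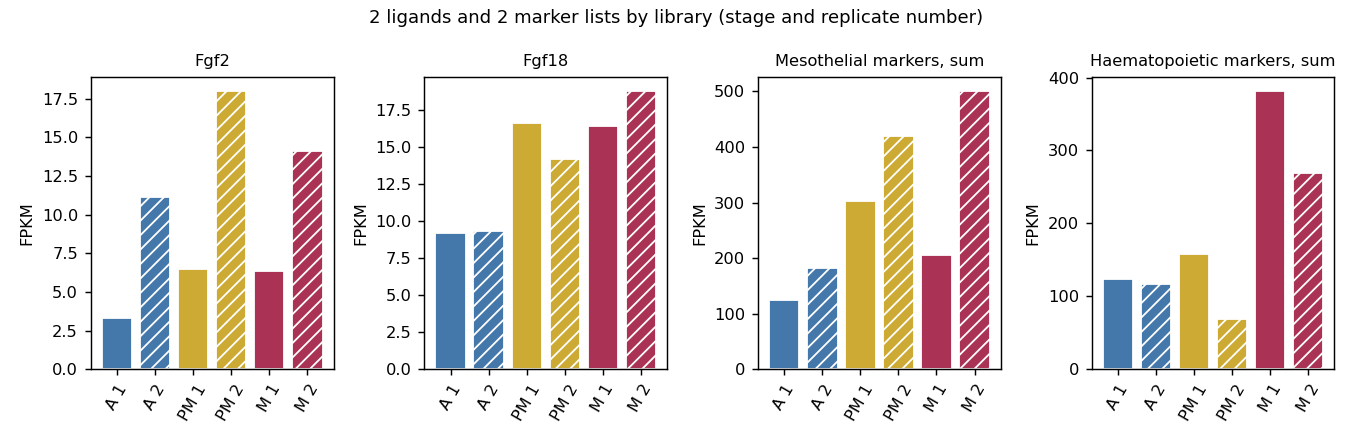
FPKM of Fgf2 and Fgf18 and summed FPKM of the 7 mesothelial and 8 haematopoietic markers in each library (bars from 0, hatched for replicate 2). Fgf2 and the mesothelial sum are higher in replicate 2 at each stage, Fgf18 and the mesothelial sum are lowest in the A-LMSC libraries, and the haematopoietic sum is highest in M-LMSCs at 381 and 270 FPKM.

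The rest of the FGF pathway was examined in 6 lists of textbook members holding 89 genes, of which 60 were tested. By limma's adjusted p, 0 of the 60 were called in any comparison, with a smallest value of 0.324 between PM-LMSCs and A-LMSCs, 0.0875 between M-LMSCs and A-LMSCs, and 0.192 between M-LMSCs and PM-LMSCs. At an unadjusted p under 0.05, 3 were higher and 2 lower in PM-LMSCs than in A-LMSCs, 8 higher and 3 lower in M-LMSCs than in A-LMSCs, and 4 higher and 2 lower in M-LMSCs than in PM-LMSCs. These are 8.33%, 18.3% and 10.0% of the 60, beside 6.53%, 14.6% and 8.94% of all tested genes. The median log2 difference of the 60 was 0.07 for PM-LMSCs and 0.07 for M-LMSCs, both against A-LMSCs, where all tested genes had medians of 0.01 and 0.03. With the replicate block, 2 of the 60 were called between M-LMSCs and A-LMSCs, Sulf1 and Fosl1.

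Some proteoglycan co-receptors were among the abundant RNAs of the pathway, while 7 of the 17 receptor and co-receptor genes had a mean under 1 FPKM. The other 10 were tested and 0 were called, with medians of 0.09 in PM-LMSCs and 0.04 in M-LMSCs against A-LMSCs. The highest levels belonged to the heparan sulfate proteoglycans Gpc4, at 117 to 146 FPKM, Sdc4, at 88.5 to 129 FPKM, and Sdc2, at 50.4 to 69.1 FPKM. Sdc4, a syndecan of focal adhesions, was at 88.5 and 92.5 FPKM at the adenoma stage, 97.5 and 108 FPKM at the pre-metastatic stage, and 129 and 119 FPKM at the metastatic stage, so its stages did not overlap (log2 difference of M-LMSCs from A-LMSCs 0.45, standard error 0.11, adjusted p = 0.157 from limma). Gpc3 had the largest distance between stages of the list, at 8.47 and 9.64 FPKM at the adenoma stage and 9.91 and 19.7 FPKM at the metastatic stage (0.58, standard error 0.30, adjusted p = 0.412 from limma). Flrt2, a membrane protein that binds FGF receptors, was highest in PM-LMSCs at 7.32 and 5.06 FPKM, against 4.54 and 3.60 FPKM at the adenoma stage (0.49, standard error 0.19, adjusted p = 0.690 from limma).

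Among genes that make, trim or carry heparan sulfate and ligands, the sulfatase genes Sulf1 and Sulf2 had the largest distances between stages. Of 15 genes 14 were tested and 0 were called, with medians of 0.05 in PM-LMSCs and 0.14 in M-LMSCs against A-LMSCs. Sulf1 and Sulf2 encode extracellular enzymes that remove 6-O-sulfate groups from heparan sulfate, which lowers its use as an FGF co-receptor. Sulf1 was at 17.8 and 13.8 FPKM at the adenoma stage, 18.0 and 19.0 FPKM at the pre-metastatic stage, and 26.4 and 22.6 FPKM at the metastatic stage. Its log2 difference of M-LMSCs from A-LMSCs was 0.61 with a standard error of 0.15 (limma, adjusted p = 0.156), and with the replicate block the adjusted p was 0.0497, which became 0.137 when GC content and length were corrected as well. Sulf2 was at 7.30 and 7.08 FPKM at the adenoma stage, 10.5 and 11.1 FPKM at the pre-metastatic stage, and 10.5 and 9.78 FPKM at the metastatic stage. Its log2 differences from A-LMSCs were 0.53 for PM-LMSCs (limma, adjusted p = 0.324) and 0.44 for M-LMSCs (adjusted p = 0.155), with a standard error of 0.11. Hspg2, the basement membrane proteoglycan perlecan, stayed at 124 to 143 FPKM, the polymerase gene Ext1 at 36.5 to 45.3 FPKM and the sulfotransferase gene Ndst1 at 36.8 to 39.2 FPKM.

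Adaptors and kinases between the receptors and ERK lay near the median of all genes. Of 19 genes 18 were tested and 0 were called, with medians of 0.02 in both comparisons with A-LMSCs. The ERK kinases Map2k1 and Map2k2 were at 47.5 to 61.1 FPKM and 32.0 to 44.2 FPKM, and the ERK gene Mapk3 at 45.7 to 58.3 FPKM. Hras was at 18.6 and 19.4 FPKM at the adenoma stage, 16.0 and 14.0 FPKM at the pre-metastatic stage, and 12.3 and 15.2 FPKM at the metastatic stage (log2 difference of M-LMSCs from A-LMSCs -0.44, standard error 0.14, adjusted p = 0.229 from limma). The phosphatase gene Ptpn11 was at 13.8 FPKM in M-LMSC replicate 1 and at 24.5 to 27.1 FPKM in the other 5 libraries, so its low M-LMSC mean rested on 1 library.

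Of 11 other feedback inhibitors, 9 were tested and 0 were called, and their medians against A-LMSCs were 0.15 in PM-LMSCs and 0.20 in M-LMSCs. Dusp4, a phosphatase of nuclear ERK, was the most abundant at 55.7 to 67.0 FPKM and showed overlap between PM-LMSCs and A-LMSCs. Its M-LMSC libraries, at 66.0 and 65.0 FPKM, lay above both A-LMSC libraries, at 62.1 and 55.7 FPKM (log2 difference 0.15, standard error 0.11, adjusted p = 0.544 from limma). Dusp5 measured 29.6 FPKM in both A-LMSC libraries, 34.5 and 31.6 FPKM at the pre-metastatic stage, and 24.8 and 22.1 FPKM at the metastatic stage. Its log2 difference between M-LMSCs and PM-LMSCs was -0.48 (standard error 0.11, adjusted p = 0.304 from limma). Spry1, a paralog of Spry2, also had its lowest mean in PM-LMSCs, at 9.84 and 12.9 FPKM against 15.2 and 16.5 FPKM at the adenoma stage (log2 difference -0.46, standard error 0.17, adjusted p = 0.686 from limma). Il17rd, which encodes the receptor-bound FGF antagonist Sef, was at 0.724 and 1.11 FPKM at the adenoma stage, 1.45 and 1.72 FPKM at the pre-metastatic stage, and 1.35 and 2.14 FPKM at the metastatic stage. Both A-LMSC libraries lay below its later ones (log2 difference of M-LMSCs from A-LMSCs 0.51 with a standard error of 0.18, limma's adjusted p = 0.271, and 0.0589 with the replicate block).

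Genes that ERK signalling is known to induce had differences on both sides of 0. Of 10 such genes 9 were tested and 0 were called, and their median difference from A-LMSCs was 0.07 for PM-LMSCs and -0.20 for M-LMSCs. Fosl1, which encodes the AP-1 subunit Fra-1, was at 32.9 and 31.1 FPKM at the adenoma stage, 31.0 and 29.3 FPKM at the pre-metastatic stage, and 19.9 and 19.5 FPKM at the metastatic stage. Its log2 difference of M-LMSCs from A-LMSCs was -0.68 with a standard error of 0.10 (limma, adjusted p = 0.0875), and with the replicate block the adjusted p was 0.0218, or 0.0430 with GC content and length corrected as well. Fosl1 shares 1163 exonic bases, 57.2% of its length, with Ccdc85b on the opposite strand, which was at 131 and 141.2 FPKM at the adenoma stage and 101 and 90.1 FPKM at the metastatic stage, and how reads over that stretch were assigned is not given in the sources used here. Fos, another AP-1 subunit, was higher in M-LMSCs, at 8.70 and 6.87 FPKM against 5.22 and 5.09 FPKM at the adenoma stage (0.50, standard error 0.16, adjusted p = 0.238 from limma). Ier3 was at 61.1 to 81.96 FPKM, Ccnd1, the gene of cyclin D1, at 50.2 to 83.2 FPKM and Phlda1 at 34.3 to 53.5 FPKM.

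**Figure D5:**
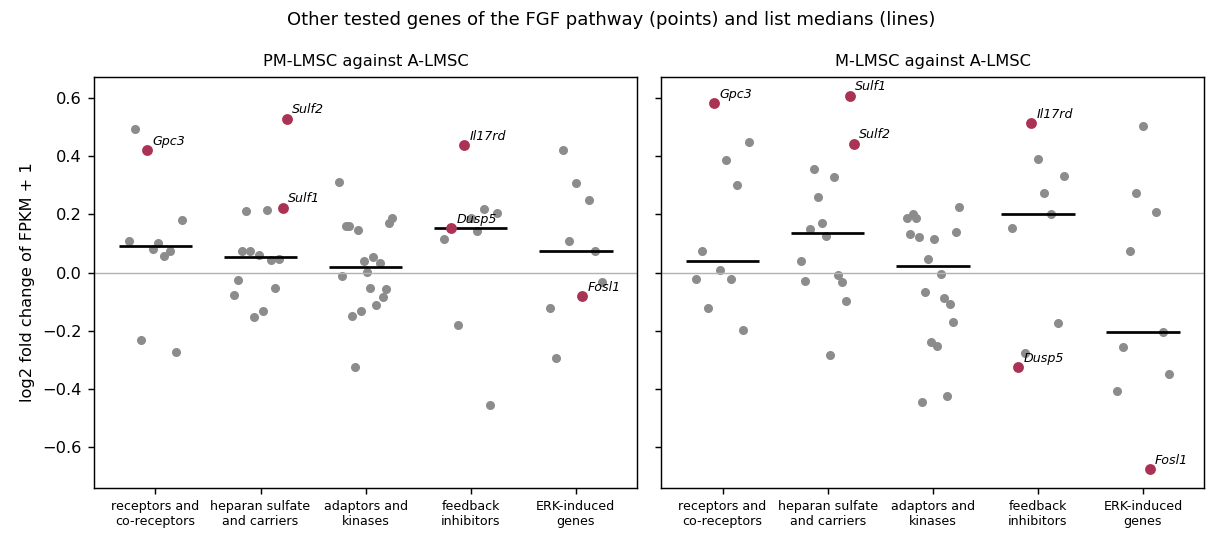
Log2 fold change of FPKM + 1 for the 60 other tested genes of the FGF pathway by list, for PM-LMSCs (left) and M-LMSCs (right) against A-LMSCs; points are genes, lines are list medians and 6 genes described in the text are marked. Sulf1 at 0.61 and Fosl1 at -0.68 lie at the top and the bottom in M-LMSCs, and list medians run from -0.20 to 0.20.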

How the data were processed

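RNA was sequenced from 6 libraries of cultured LMSCs, 2 for each stage; a further library of every stage, which the study describes, was not analysed here. The authors deposited FPKM values for 34745 genes; the submitters' processing notes name TopHat2 2.0.9 and mm10, and the counting tool, annotation and strand setting are not given in the sources used here. Of the identifiers, 34267 matched GENCODE M21 (GRCm38), from which positions and exon overlaps were taken. Depth was estimated from the spacing of low values of single-transcript genes (96.2% to 96.9% within 0.1 of a whole fragment), and no counts were used.

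Values were fitted as log2(FPKM + 1) in R 4.3.3 with limma 3.58.1 (lmFit, eBayes with trend), with 1 mean per stage and all 6 libraries, for 10279 genes whose mean reached 1 FPKM. Adjustment was by Benjamini and Hochberg over those genes, with a threshold of 0.05, and p-values measure the spread between libraries, which the study describes as made from separate mice. The fits were also run on simulated data, in which each library was drawn independently. That run cannot show how the fits behave when libraries of the same number deviate together. The FGF genes and lists were chosen with earlier results of these data known. From each list without one of the 10 genes, the text names up to 3 genes with the highest mean FPKM, up to 2 with the largest distance between stage means, and those past the threshold with or without the block; of genes nearest to Fgf18, 3 are named. Same-numbered libraries deviated together across genes (correlation 0.238 between A- and PM-LMSCs, 0.307 between A- and M-LMSCs and 0.491 between PM- and M-LMSCs), so the numbers were treated as pairing them. Python 3.11.15 with pandas 2.3.3 and numpy 2.4.6 was used for the remaining steps.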

Additional observations from a re-analysis of the deposited data

Results flagged for a closer look

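In 3 other tested genes of the FGF pathway the later stages lay on opposite sides of the adenoma stage, with no overlap between libraries. The share of all tested genes with this arrangement was not computed, so the 3 are given as a description. In a single comparison, non-overlap held for 39.3% of all tested genes (PM-LMSCs against A-LMSCs), 51.5% (M-LMSCs against A-LMSCs) and 34.5% (M-LMSCs against PM-LMSCs). Glg1, which encodes an FGF-binding protein of the Golgi, was at 26.9 and 26.2 FPKM at the adenoma stage, 23.5 and 24.1 FPKM at the pre-metastatic stage, and 31.3 and 28.7 FPKM at the metastatic stage, with a log2 difference between M-LMSCs and PM-LMSCs of 0.32 (standard error 0.10, adjusted p = 0.431 from limma). Grb2, the adaptor that links receptors to RAS, measured 18.3 and 19.6, 18.0 and 16.0, and 20.8 and 20.6 FPKM in that order, with a difference of 0.27 (standard error 0.11, adjusted p = 0.557 from limma). Dusp5, an ERK phosphatase, was on the opposite sides, with a difference of -0.48 (standard error 0.11, adjusted p = 0.304 from limma). The threshold was passed by none of the 3 differences. With 2 libraries per stage, no library was tested for lying apart from its group.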

How the results depend on the processing

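The 7 tested FGF genes kept 252 of 273 values of a stage difference on the same side of 0 over the alternatives, and 257 moved by less than 1 SD between libraries. Part of both counts was fixed in advance. The replicate block, dropping the filter, using only the libraries compared, and leaving out a library of the third stage cannot change a stage difference. The SD was that of each gene, so Fgf2, at 0.92, counted as moved under no alternative, although its sign changed under some. No alternative tried changed a sign of Fgf18, and each of the other tested FGF genes changed sign in at least 1 comparison. Of all FGF pathway genes, 0 were called in the fit reported, and in M-LMSCs against A-LMSCs 3 (Fgf18, Fosl1 and Sulf1) were called with the replicate block and 2 (Fgf18 and Fosl1) with the replicate block and a correction for GC content and length, which was chosen after seeing the data. Over all tested genes, PM-LMSCs against A-LMSCs gave 4 calls, 1 with no filter on low values, 21 with only the libraries compared, 30 with the replicate block, 6 with the block and the correction, and 1 to 28 with 1 library left out. M-LMSCs against A-LMSCs gave 7 calls, 3 with no filter, 1 with only the libraries compared, 403 with the replicate block, 305 with the block and the correction, and 1 to 90 with 1 library left out. M-LMSCs against PM-LMSCs gave 3 calls, 43 with the replicate block, 6 with the block and the correction, and 2 to 25 with 1 library left out. The cause of these moves was not tested. A pseudocount of 0.1, quantile normalization, median centering and a log2 fold change of at least 1 kept each count within 1.5 times. Depth limits Fgf1 and Fgfr3, which rest on at most 16.4 estimated fragments per library.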
